A study of Mus musculus with 6 samples.

Results

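The let-7 family was followed through 6 small RNA-seq libraries, 3 of each sex, made from the whole brain of wild-type C57BL/6 mice at E15.5. The members were the guide (5p) strands of let-7a, let-7b, let-7c, let-7d, let-7e, let-7f, let-7g and let-7i and of miR-98, taken by exact name: 9 of the 1915 mature miRNAs listed. All 9 were among the 1120 miRNAs that passed the filter on low counts. No treatment or mutation separated the groups, and the comparison asked whether miRNA levels differed between the sexes. Each library held RNA pooled from 2 to 3 embryos, so the spread between libraries is a spread between pools and not between single animals.

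Let-7 miRNAs are among the most conserved animal miRNAs. Their guide strands share a seed, the stretch at the 5′ end that pairs with target mRNAs, and are therefore expected to bind overlapping sets of targets, among them *Lin28*, *Hmga2* and *Ras* family genes. In stem and progenitor cells the RNA-binding protein LIN28 blocks the maturation of let-7 precursors, and mature let-7 rises as neural progenitors differentiate.

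The mature sequences (RefSeq, table on build GRCm38.p6) are shown because most members differ from one another by very few bases outside the seed. Capitals mark the seed, bases 2 to 8.
mmu-let-7a-5p: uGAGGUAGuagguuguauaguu
mmu-let-7b-5p: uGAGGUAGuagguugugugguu
mmu-let-7c-5p: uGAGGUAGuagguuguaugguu
mmu-let-7d-5p: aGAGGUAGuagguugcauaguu
mmu-let-7e-5p: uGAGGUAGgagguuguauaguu
mmu-let-7f-5p: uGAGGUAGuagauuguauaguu
mmu-let-7g-5p: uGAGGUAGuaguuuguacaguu
mmu-let-7i-5p: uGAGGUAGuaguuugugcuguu
mmu-miR-98-5p: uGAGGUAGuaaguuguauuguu

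All 9 are 22 bases long and carry the seed GAGGUAG. Counted from the 5′ end and with the let-7a base first, let-7c differed from let-7a by A19G, let-7e by U9G and let-7f by G12A. Let-7b differed by A17G and A19G, let-7d by U1A and U16C, let-7g by G12U and U18C, and miR-98 by G11A and A19U. Let-7i was the farthest from let-7a, with G12U, A17G, U18C and A19U. Of the 36 pairs of members, 4 differed by 1 base, and these pairs joined let-7a, let-7b, let-7c, let-7e and let-7f into one group of 5. How many mismatches were allowed in counting, and how reads matching several miRNAs were assigned, is not given in the sources used here, so the split of reads within that group is uncertain. The GC content of the mature sequence was lowest in let-7f and miR-98, at 31.8%. It was 36.4% in let-7a and let-7g, 40.9% in let-7c, let-7d, let-7e and let-7i, and 45.5% in let-7b.

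Several precursors sit in the introns of other genes (coordinates on NCBIM37, which is mm9). Mir98 (chrX:148347757-148347864) and Mirlet7f-2 (chrX:148346889-148346971) lie on the plus strand of the X chromosome in an intron of *Huwe1*, a ubiquitin ligase gene of the same strand. Mirlet7g (chr9:106081171-106081258) lies in an intron of *Wdr82*. Mirlet7a-2 (chr9:41344799-41344894) and Mir100 (chr9:41339508-41339587) lie in introns of the noncoding gene D230004N17Rik. Mirlet7a-1, Mirlet7f-1 and Mirlet7d lie on chromosome 13 between 48631381 and 48633641, with no overlapping gene. Mirlet7e (chr17:17967316-17967408) lies just upstream of Mir125a, Mirlet7c-1 (chr16:77599902-77599995) lies beside Mir99a, and Mirlet7b and Mirlet7c-2 lie beside each other on chromosome 15. As let-7a, let-7c and let-7f come from more than 1 locus each, their mature counts do not say which locus was used.

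The libraries held between 14802675 and 59362011 reads on miRNAs. Female library 2 stood apart: it was the deepest, yet 660 miRNAs were detected in it against 790 to 915 in the others. Brain miRNAs (miR-9, miR-124, miR-128, miR-137 and miR-138) summed to between 162440 and 211958 counts per 1000000 reads of the library total (CPM). The female libraries (193225 to 211958) lay above the male ones (162440 to 187942). In the study's read totals miR-9-5p ranked first of all miRNAs, so it weighs most in this sum, and it was not called. Of the brain list 2 of 5, miR-137-3p and miR-138-5p, were called female-biased. The lists for other cell types also moved with sex. Summed skeletal muscle markers, all 4 of them called male-biased, stood at 388 to 1180 CPM in females and 5497 to 6139 CPM in males. Epithelial markers, 5 of 6 called male-biased, stood at 429 to 1133 CPM and 7990 to 8284 CPM. Mesenchymal markers, 4 of 4 called male-biased, stood at 4459 to 12438 CPM and 19184 to 22960 CPM. Red blood cell markers, 1 of 3 called, stood at 646 to 1354 CPM and 1595 to 1972 CPM, where the call was male-biased. Endothelial markers stood at 3864 to 8146 CPM and 2690 to 3900 CPM, and although these sums overlapped, 2 of 2 were called female-biased. The leukocyte list overlapped and had no call. Over all 1120 miRNAs in the same test, 3.21% were called male-biased and 5.27% female-biased. The part of these lists in the results for let-7 was not tested. In such bulk RNA fewer cells of a type and less RNA per cell cannot be told apart, nor can cells of the brain and cells from outside it.

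Together the 9 guide strands made up 12.1% to 14.2% of each library. Their summed share was 12.2%, 12.8% and 12.5% of all miRNA reads in the female libraries 1 to 3 and 13.4%, 14.2% and 12.1% in the male libraries 1 to 3. Females averaged 12.5% ± 0.300 (SD, n = 3). Males averaged 13.2% ± 1.05 (SD, n = 3), and the sexes overlapped, since male library 3 was the lowest of all 6. The male mean was 7605 CPM higher per library total, and with TMM scaling, which sets libraries level by their typical miRNA, the difference was -3688 CPM, so the sum had no direction that held under both scalings.

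**Figure D1:**
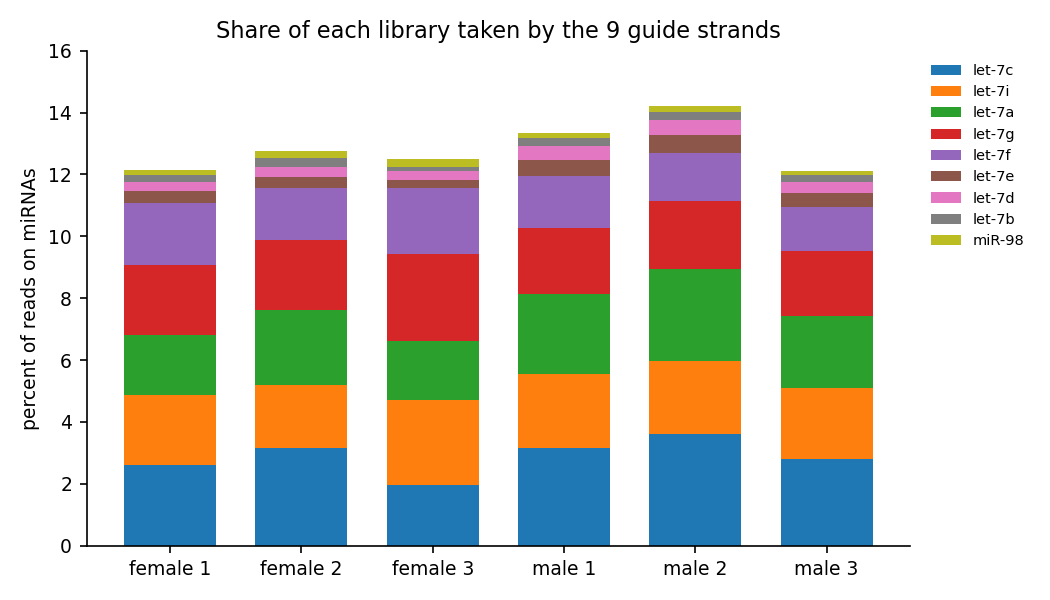
Stacked bars give the percent of miRNA reads (y axis, from 0) taken by each of the 9 guide strands in the 3 female and 3 male libraries. The totals run from 12.1% to 14.2%, and let-7c, let-7i, let-7a, let-7g and let-7f fill most of each bar.

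The members fell into a high and a low abundance class. Let-7c, let-7i, let-7a, let-7g and let-7f together held 89.4% to 92.6% of the family's reads, and each of them stood above each of the other 4 in every library. The mean over the 6 libraries was 28741 CPM for let-7c, 23627 CPM for let-7i, 23573 CPM for let-7a, 22941 CPM for let-7g and 17481 CPM for let-7f. The lower class held let-7e at 4221 CPM, let-7d at 3670 CPM, let-7b at 2352 CPM and miR-98 at 1882 CPM. Within each class most neighbours in this order did not separate. Let-7i exceeded let-7a in 3 of 6 libraries, with a mean difference of 54.1 CPM ± 5094 (SD), let-7a exceeded let-7g in 4 of 6, and let-7c exceeded let-7i in 5 of 6. Let-7g was above let-7f in 6 of 6 libraries, by 5460 CPM ± 1812 (SD), although their ranges overlapped across libraries. The ranges of let-7f and let-7e, and those of let-7d and let-7b, did not overlap. The reference sequences are of equal length, but the lengths of the reads were not examined. Ligation and amplification differ between sequences, so an order of levels in reads is not an order of molecules.

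**Figure D2:**
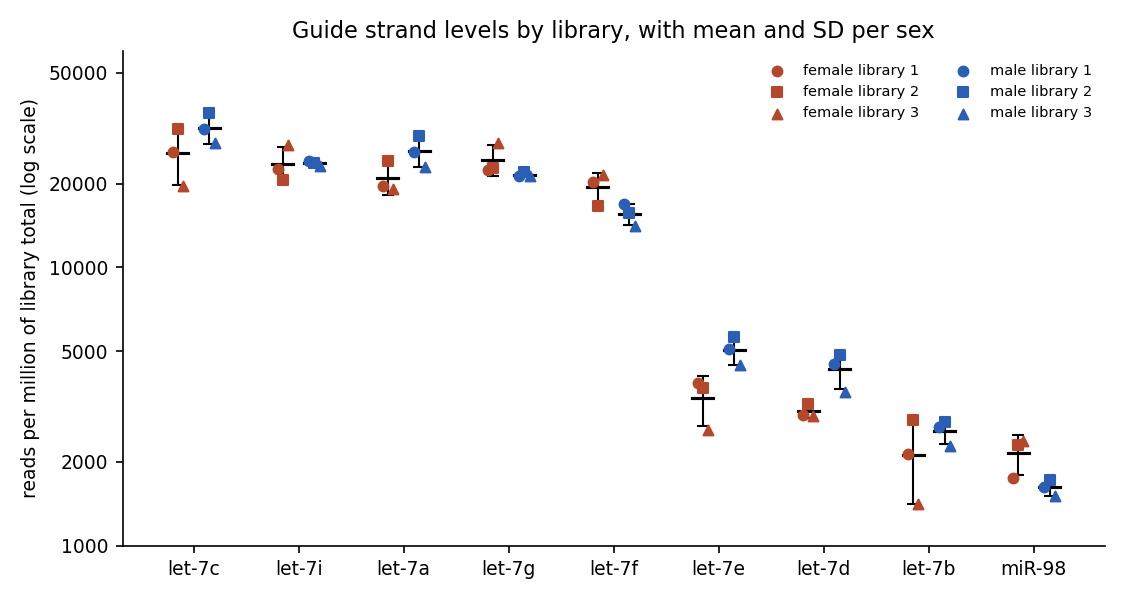
CPM (y axis, log scale) for each guide strand, with female libraries in red and male libraries in blue, a symbol for each library, and the mean and SD per sex as bars (n = 3). The 5 abundant members lie between 14067 and 35962 CPM and the other 4 between 1409 and 5637 CPM.

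Let-7d and let-7e, which differ in sequence from each other by 3 bases, were the members whose male libraries all lay above the female ones. Let-7e stood at 3844, 3699 and 2596 CPM in female libraries 1 to 3 and at 5109, 5637 and 4442 CPM in male libraries 1 to 3. Let-7d stood at 2956, 3228 and 2921 CPM in females and at 4495, 4844 and 3575 CPM in males. The gap was narrower for let-7d, between female library 2 and male library 3.

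MiR-98 and let-7f, the members of lowest GC content, pointed the other way. MiR-98 stood at 1747, 2306 and 2380 CPM in females and at 1623, 1725 and 1513 CPM in males, with no overlap and a narrow gap between female library 1 and male library 2. Let-7f stood at 20199, 16672 and 21396 CPM in females and at 16833, 15721 and 14067 CPM in males. Female library 2 fell just below male library 1, so the sexes overlapped.

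Let-7g stood at 22436, 22652 and 27992 CPM in females and at 21340, 22002 and 21224 CPM in males, again without overlap. Let-7i stood at 22540, 20656 and 27559 CPM in females and at 24130, 23727 and 23149 CPM in males, where the male libraries lay inside the female range. These guide strands share the G12U and U18C differences from let-7a.

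Let-7a stood at 19643, 24088 and 19122 CPM in females and at 25909, 29662 and 23012 CPM in males. Let-7c stood at 26061, 31421 and 19580 CPM in females and at 31444, 35962 and 27978 CPM in males. Let-7b stood at 2132, 2822 and 1409 CPM in females and at 2673, 2788 and 2289 CPM in males. In all 3 the sexes overlapped, with female library 2 the highest female value and, for let-7b, the highest of all 6.

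In CPM the sexes did not overlap for 4 of the 9 members (let-7d, let-7e, let-7g and miR-98), against a background of 23.9% of the 1120 miRNAs and 65.3% of the 98 whose mean reached 1000 CPM. In TMM-scaled CPM they did not overlap for 2, let-7e and let-7f, against 23.8% of all and 51.0% of the 98. With edgeR's quasi-likelihood test, adjusted over all 1120 miRNAs, none of the 9 passed an adjusted p of 0.05 and 1, miR-98, had an unadjusted p under 0.05 (background 18.4%), while 8.48% of all miRNAs tested and 27.6% of those averaging 1000 CPM or more passed. DESeq2 without a further term likewise called none, beside 16.2% of the miRNAs to which it gave an adjusted p. In that fit 4 members had an unadjusted p under 0.05, for which no share over all miRNAs was taken.

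On the log2 scale, male over female, the largest estimates were -0.54 for miR-98 (SE 0.21, adjusted p = 0.138, 95% interval -0.97 to -0.11) and 0.46 for let-7e (SE 0.22, adjusted p = 0.289). Let-7f was at -0.44 (SE 0.24, adjusted p = 0.346) and let-7d at 0.38 (SE 0.21, adjusted p = 0.375) by the same edgeR test. The others lay between -0.30 for let-7g and 0.19 for let-7a, with adjusted p from 0.504 to 0.859. In all, 5 estimates were positive and 4 negative. The intervals were wide, that of let-7i running from -0.64 to 0.40.

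Whether single members passed depended on how unwanted variation was treated. With a factor of unwanted variation from RUVr in DESeq2, the kind of model the study used, 4 of 9 members passed: let-7d (0.42, adjusted p = 0.0335) and let-7e (0.52, adjusted p = 0.0173) as male-biased, and let-7f (-0.42, adjusted p = 0.0112) and miR-98 (-0.49, adjusted p = 0.0281) as female-biased. The background in that fit was 25.8%. With the same factor in edgeR, let-7e and miR-98 passed (2 of 9, background 20.2%). The factor's weight was 0.84 in female library 2 and between -0.43 and 0.02 in the others. The residuals behind the factor were made in 4 ways, 3 of them added after seeing the data. DESeq2 called the same 4 members under each, beside backgrounds of 28.5%, 26.3% and 26.2% in the added ones. The counts in edgeR were 2, 2, 0 and 0, beside 226, 228, 147 and 137 calls over all miRNAs (20.4%, 13.1% and 12.2% in the added ones). Without female library 2, edgeR called let-7e alone (0.59, adjusted p = 0.0285, background 18.3%), and DESeq2 with RUVr, a fit added after seeing the data, called 7 of 9 (background 29.3%).

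**Figure D3:**
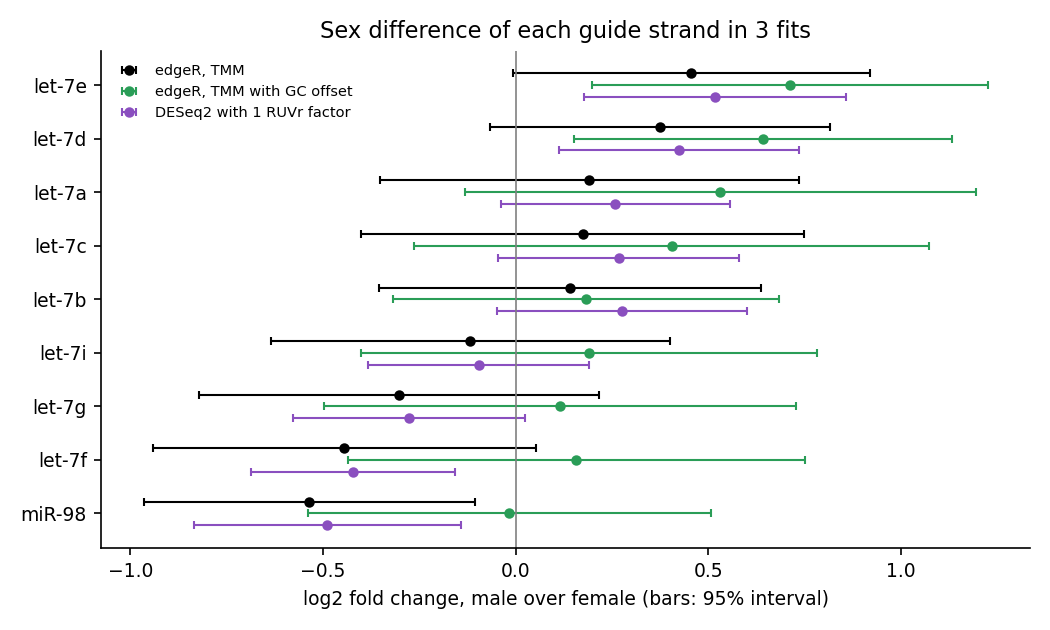
The log2 fold change of each guide strand, male over female (x axis), with 95% intervals, from edgeR with TMM (black), edgeR with a GC offset (green) and DESeq2 with 1 RUVr factor (purple). Estimates run from let-7e at 0.46 down to miR-98 at -0.54 in the first fit, and with the GC offset let-7f, let-7g and let-7i move to the other side of 0.

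As a share of the summed members, the sexes did not overlap for 6 of 9. Set against the same sum, 53.9% of the 89 other miRNAs averaging 1000 CPM or more did not overlap. Let-7a, let-7d and let-7e took larger shares in males and let-7f, let-7g and miR-98 in females. Let-7f took 16.6%, 13.1% and 17.1% of the family's reads in females and 12.6%, 11.1% and 11.6% in males. Let-7a took 16.2%, 18.9% and 15.3% in females and 19.4%, 20.9% and 19.0% in males. Let-7d took 2.43% ± 0.0966 in females and 3.24% ± 0.255 in males (SD, n = 3 each).

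Ratios of 2 members within a library do not depend on its scaling. The ratio of let-7f to let-7a, which differ by 1 base, was 1.03, 0.692 and 1.12 in females and 0.650, 0.530 and 0.611 in males, a difference of -0.64 on the log2 scale. The ratio of let-7g to let-7i was 0.995, 1.10 and 1.02 in females and 0.884, 0.927 and 0.917 in males. The ratio of let-7d to let-7a was 0.150, 0.134 and 0.153 in females and 0.174, 0.163 and 0.155 in males. The sexes did not overlap in these 3, each with p = 0.1 in an exact two-sided permutation test (the smallest that 3 against 3 allows) and an adjusted value of 0.2 over the 6 ratios compared.

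The other 3 ratios overlapped. The ratio of let-7e to let-7a differed by 0.28 (exact p = 0.3), that of let-7b to let-7c, which differ by A17G, by 0.01 (exact p = 0.9), and that of miR-98 to let-7f, which share their GC content and, for Mirlet7f-2, a host intron, by -0.08 (exact p = 0.7). Over all 36 pairs of members, counted after seeing the data, 18 (50%) did not overlap. The background was 49.6% of 58311 pairs among 342 miRNAs averaging 1000 reads or more, a share close to that of the members.

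**Figure D4:**
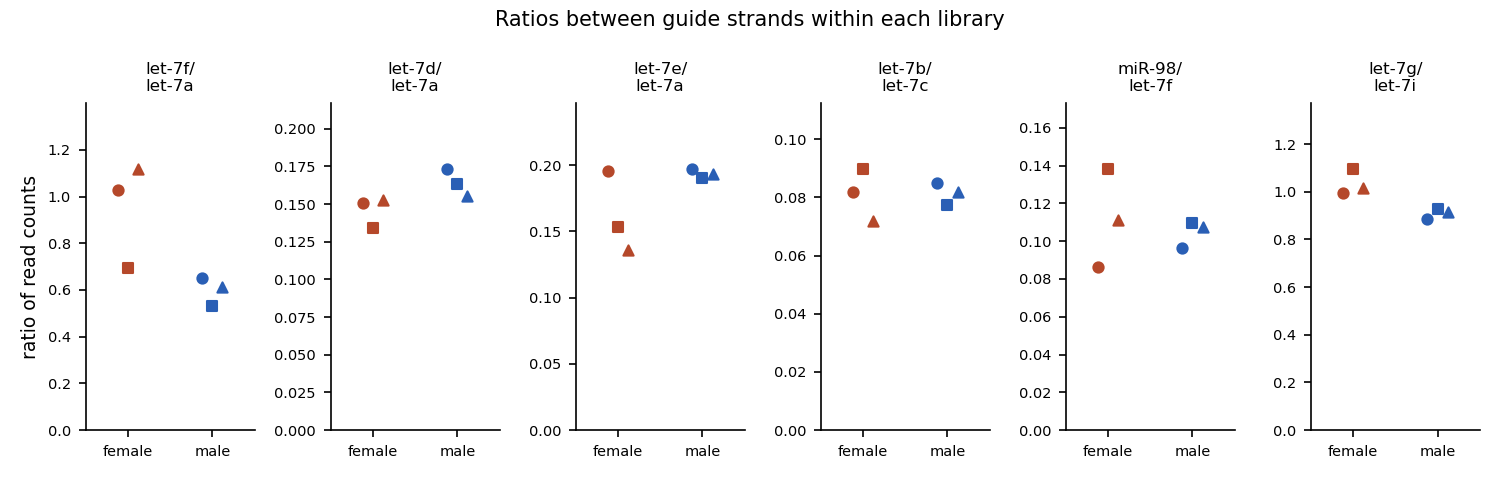
Ratio of read counts of 2 guide strands within each library (y axis, from 0 in each panel), by sex, with a symbol for each library. The sexes do not overlap for let-7f/let-7a, let-7d/let-7a and let-7g/let-7i.

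The log2 fold changes of the members tended to rise with GC content, as did those of other miRNAs. Members of equal GC content could still differ in sign, as let-7a (0.19) and let-7g (-0.30) did at 36.4%. Over the 9 members the log2 fold change correlated with GC content at r = 0.75 (Spearman's rho = 0.615), as a description across sequences that share the same libraries. Over 465 other miRNAs that averaged 100 reads or more and had a known sequence r was 0.321 (Spearman's rho = 0.418). The median log2 fold change of those others rose from -0.85 below 35% GC to 0.22 at 55% GC and above. Within each library, the slope of the members' log2 levels, centred on their mean over libraries, on GC content was -0.0147, -0.00305 and -0.0738 per percent in females and 0.0299, 0.0362 and 0.0253 in males. The slope of the other miRNAs was -0.0202, 0.00508 and -0.0282 in females and 0.0157, 0.0135 and 0.0141 in males. In both sets every male slope lay above every female one.

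An offset for GC content, estimated per library over all miRNAs of sufficient depth, moved all 9 estimates upward. In the GC ranges that hold the members the median log2 fold change of the other miRNAs was below 0. A shift upward there follows from how the offset is made. The partner miRNAs described further below all moved down in the same fit, miR-99a from -0.70 to -0.93. Let-7f went from -0.44 to 0.16, let-7g from -0.30 to 0.12, let-7i from -0.12 to 0.19 and miR-98 from -0.54 to -0.02. Let-7a went from 0.19 to 0.53, let-7c from 0.17 to 0.41 and let-7b from 0.14 to 0.18. Let-7e rose to 0.71 (SE 0.25, adjusted p = 0.0921) and let-7d to 0.64 (SE 0.24, adjusted p = 0.121) in edgeR, and no member passed, against a background of 6.73% of 951 miRNAs. The let-7f to let-7a ratio still did not overlap between the sexes with the offset, at -0.45 on the log2 scale. The let-7g to let-7i and let-7d to let-7a ratios came to overlap, whereas that of let-7b to let-7c came apart (-0.23). Of the 36 pairs, 14 were apart under the offset, against a background of 42.9% of the 42195 pairs that could be offset.

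**Figure D5:**
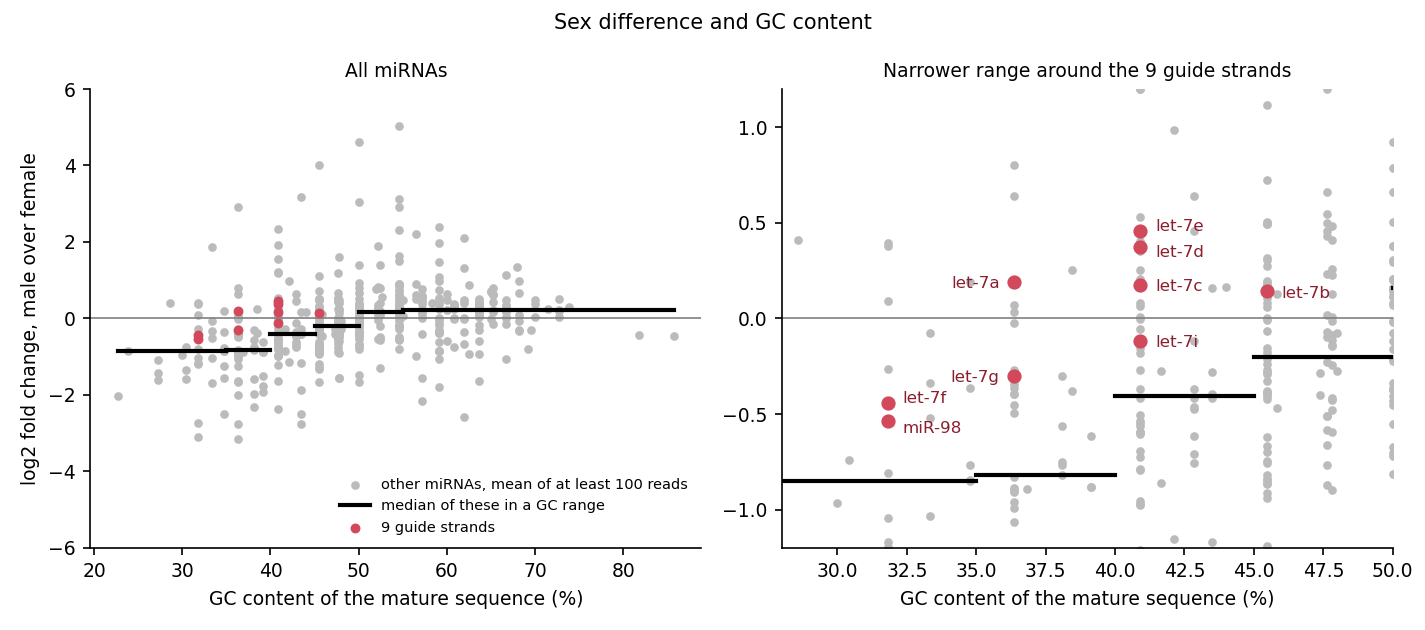
Log2 fold change, male over female (y axis), against the GC content of the mature sequence (x axis, percent), for the 9 guide strands (red) and 465 other miRNAs averaging 100 reads or more (grey), with black lines for the medians of the others in GC ranges; the right panel narrows both axes. Let-7f and miR-98, at 31.8% GC, are the lowest of the members, and each of the 9 lies above the median of the others in its GC range.

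MiRNAs carried on let-7 transcripts or related to their partners were read from a list of 5. None of the 5 passed in the edgeR test (background 8.48%), with 2 at an unadjusted p under 0.05 (background 18.4%), and 1, miR-99a, passed in DESeq2 without a factor (background 16.2%). MiR-99a, encoded beside let-7c-1, stood at 32326, 32639 and 39322 CPM in females and at 22007, 22671 and 25068 CPM in males, without overlap (log2 fold change -0.70, SE 0.26, edgeR adjusted p = 0.116). Let-7c itself had an estimate of 0.17. MiR-100, encoded in the same host gene as let-7a-2, was at -0.55 (edgeR adjusted p = 0.174), where let-7a was at 0.19. MiR-99b was at 0.03, miR-125a at -0.02 and miR-125b at 0.08, values that rested on female library 2. Without it they were 0.24, 0.65 and 0.45, and miR-125a was called male-biased (edgeR adjusted p = 0.0229), as miR-125a and miR-125b were in DESeq2 with RUVr without that library. In DESeq2 with the RUVr factor miR-99a and miR-100 passed as female-biased (background 25.8%). The estimates of miR-99a and let-7c, and those of miR-100 and let-7a, were thus of opposite sign. MiR-125b, whose precursor Mir125b-1 also lies in D230004N17Rik, had the same sign as let-7a. MiR-125a, encoded beside let-7e, was at -0.02 where let-7e was at 0.46. Without female library 2 they were at 0.65 and 0.59. Let-7c was at -0.00488 without female library 3, so its sign was not stable. These differences were not tested.

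The opposite (3p) arms of the precursors are normally discarded after loading, and held 0.453% to 1.04% of guide plus opposite arm reads. All 12 were tested and 1 was called, near the background of 8.48% of all miRNAs. It was let-7d-3p, which was male-biased at 0.92 (SE 0.23, edgeR adjusted p = 0.00789). Its level was 442, 632 and 361 CPM in females and 920, 977 and 1107 CPM in males, above the females in every male library and in the same direction as its guide strand. The counts of let-7a-1-3p and let-7c-2-3p, whose sequences are identical, were identical in 6 of 6 libraries, so reads of one sequence were listed under both names.

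Outside the members, let-7k and miR-1961 carry the same seed in the 11 names that have it, and both were almost absent: let-7k had 0 to 36 reads and miR-1961 0 to 1. Let-7j, looked at after the data were seen, has let-7i's sequence but for G8U and 2 more bases at the 3′ end, and its counts were 3.58% to 4.98% of those of let-7i in every library. For miR-98 and let-7f-2, on the X chromosome, the 54 X-linked miRNAs averaging 100 reads or more give the setting: 2 were male-biased (background 6.33% of all miRNAs of that depth) and 4 female-biased (background 10.7%), with a median log2 fold change of -0.08 against -0.08 for all miRNAs of that depth. The miRNAs whose log2 CPM ran most like that of the summed family over the 6 libraries, among 544 candidates, were miR-425-3p (r = 0.857), miR-211-5p (0.803), miR-3104-3p (0.793), miR-26a-5p (0.782) and miR-674-5p (0.769). With 6 libraries and 544 candidates such values are a description only.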

How the data were processed

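RNA of whole E15.5 brains was made into Illumina TruSeq small RNA libraries. Per the labels and the study's methods, the authors trimmed reads with cutadapt 1.15, aligned them with Bowtie 1.2.1 to mm9 in the miRDeep2 workflow against miRBase v.21, and deposited raw read counts per mature miRNA for each library. Those counts were used as deposited. Members, lists and tests were chosen with earlier results of these data known. Named were the 9 members, the 5 partners, other miRNAs of the same seed, the 5 miRNAs most like the summed family, and the opposite arms by count and range. let-7d-3p, let-7j and the pairs, GC ranges, X-linked miRNAs and abundant miRNAs were singled out after their values were seen.

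Levels are CPM, counts scaled to 1000000 reads per library total. With 25865 to 1865230 reads per member and library, the widest 95% Wilson interval was ± 1.22% of the level. These intervals cover counting error only, since PCR copies without molecular identifiers are not independent molecules.

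The sexes were compared with edgeR 4.0.16 (R 4.3.3): a minimum of 10 reads per miRNA over the 6 libraries together, TMM scaling, the quasi-likelihood test with all 6 libraries and Benjamini-Hochberg adjustment (threshold 0.05). Each SE was derived as |log2 fold change| over the root of the F statistic. Alternatives were DESeq2 1.42.0, 1 RUVr factor, other scalings and filters, each library left out, a replicate block, and a GC offset (loess, span 0.75). For it, 474 of 553 miRNAs (85.7%) averaging 100 reads or more had a sequence. The RUVr factor was computed from edgeR deviance residuals with upper quartile scaling. Its first call counts over all miRNAs differed from an earlier analysis of these data, which led to 3 other ways of making the residuals being run (TMM scaling, common and tagwise dispersions, or both). The first is the one reported, and all 4 are given. Fits were tested on simulated data. A first simulation that changed miRNAs with a mean of 20 reads or more missed its recovery target, so changes were then placed in miRNAs averaging 1000 reads or more, and the test speaks only for these. The recovery target was set at a log2 change far larger than any member's estimate. The simulation therefore does not show that changes as small as those of the members would be found.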

Additional observations from a re-analysis of the deposited data

How the results depend on the processing

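The count of 9 members called was 0 under every other scaling, filter and DESeq2 without a factor (backgrounds 7.95% to 17.6%). It was 2 and 4 with an RUVr factor in edgeR (background 20.2%) and DESeq2 (background 25.8%, let-7d 0.42, let-7e 0.52, let-7f -0.42, miR-98 -0.49). When a library was left out it was 0 to 1 (backgrounds 2.73% to 18.3%). The 1 was let-7e without female replicate 2 (0.59, edgeR adjusted p = 0.0285, background 18.3%). DESeq2 with RUVr and without female replicate 2, added after seeing the data, called 7 (background 29.3%): let-7a (0.38), let-7b (0.52), let-7c (0.44), let-7d (0.50), let-7e (0.62), let-7f (-0.48) and miR-98 (-0.38). The RUVr factor gave let-7e 0.49 and miR-98 -0.51 in edgeR. With TMM residuals, edgeR gave 0.50 and -0.50, and DESeq2 0.43 (let-7d), 0.53 (let-7e), -0.43 (let-7f) and -0.48 (miR-98). With common and tagwise dispersions DESeq2 gave 0.44, 0.54, -0.44 and -0.47, and with both changes 0.45, 0.55, -0.44 and -0.47; edgeR then called 0. Partners called were 1 in DESeq2 (background 16.2%) and 2 with RUVr in either tool (backgrounds 20.2% to 28.5%). With common and tagwise dispersions edgeR called 1 (13.1% and 12.2%). With 10 reads in every library 1 was called (background 17.6%). Leaving out a library gave 0 to 2 (backgrounds 2.73% to 18.3%), the 2 being miR-99a and miR-125a without female replicate 2 (background 18.3%).

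Deviations of same-numbered libraries correlated at -0.0801, 0.0289 and 0.1577, against -0.1829 to 0.1553 for the other pairings. The numbers were therefore not taken as pairs, although so few libraries cannot exclude pairing. The replicate block called 0 members and 1 partner (background 8.21%). With the GC offset added, the block called 2 members, let-7d (0.69) and let-7e (0.79), and 2 partners (background 7.47% of 951 miRNAs). In that fit let-7f was at 0.23, let-7g at 0.18, let-7i at 0.21 and miR-98 at 0.16. The GC offset alone gave let-7f 0.16, let-7g 0.12, let-7i 0.19 and let-7b/let-7c -0.23. Library size in place of TMM shifted the median of all miRNAs by 0.12 and put let-7i at 0.00515. TMM scaling took the difference of the sums to -3688 CPM. The cause of these changes was not tested.

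Leaving out each library, log2 fold changes ran from 0.02 to 0.37 (let-7a), -0.10 to 0.48 (let-7b), -0.00488 to 0.42 (let-7c), 0.21 to 0.49 (let-7d), 0.28 to 0.59 (let-7e), -0.52 to -0.38 (let-7f), -0.38 to -0.21 (let-7g), -0.18 to -0.01 (let-7i) and -0.65 to -0.42 (miR-98). Female replicate 3 decided the sign of let-7b and let-7c. The sum's difference ran from 2717 to 13127 CPM, and the ratios from -0.0747 to 0.0850 (let-7b/let-7c), -0.25 to 0.0898 (miR-98/let-7f), 0.11 to 0.21 (let-7d/let-7a), 0.16 to 0.42 (let-7e/let-7a), -0.85 to -0.50 (let-7f/let-7a) and -0.21 to -0.15 (let-7g/let-7i). In all, 253 of the alternative values kept direction and side of the threshold or moved within the replicate spread, 30 newly passed the threshold, 22 counts moved and 15 changed sign.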
